A study of Homo sapiens with 6 samples.

Results

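The 41 protein-coding genes described here were close to silent in control HMV-II melanoma cells and were read in every library after EZH2 knockdown. They were chosen by these measurements. A gene was taken when its normalized count was at most 10 in each of 3 Vector libraries and at least 10 in each of 3 shEZH2 libraries, with a shEZH2 mean at least 3 times the Vector mean. A normalized count is the number of reads on a gene divided by the size factor of its library. The table held 30015 genes, of which 16072 were protein-coding and 3190 of those lay at or under 10 in every Vector library. The rule took 1.29% of these 3190 near-silent genes. Because the values chose the genes, the difference between the groups is given below as a description, without a test.

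EZH2 is the catalytic subunit of the Polycomb complex PRC2, which methylates a lysine of histone H3 and keeps its target genes weakly transcribed. In many cell types these targets belong to the programmes of other lineages, such as neuronal, muscle or epithelial genes in a cell that is none of these. In mammalian cells the complex is found mostly at promoters rich in CpG dinucleotides. Neither EZH2 binding nor the histone mark was measured in these 6 libraries, so a switched-on gene is here a gene with a given read pattern and not a known target.

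HMV-II is a human mucosal melanoma line of vaginal origin, grown without drug treatment. Both groups were stable lines selected with puromycin after lentiviral infection. Vector cells, labelled wild type, carried the control construct, a scrambled shRNA by the study's methods, and shEZH2 cells carried an shRNA against EZH2. Only 1 shRNA is represented, so effects of this hairpin other than on EZH2 cannot be told apart from those of the knockdown. Nothing in the labels says that the 3 replicates of a group were separate cultures, and p-values then measure only the spread between these libraries, which may be technical.

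EZH2 itself was read at 483, 437 and 552 normalized counts in Vector and at 237, 247 and 225 in shEZH2 libraries, a log2 fold change of -1.04 (SE 0.14, limma, adjusted p = 0.0142). The 2 groups did not overlap, and the exact two-sided permutation test gave p = 0.1, the smallest that 3 against 3 allows. Of 14 genes for subunits and partners of PRC2 tested, EZH2 was the only one past the threshold. Depth ranged from 13400290 to 15923029 reads in Vector and from 16129171 to 19128939 in shEZH2 libraries. Vector replicate 2 stood apart from the other Vector libraries by gene length. Its median log2 deviation was -0.51 in the quintile of shortest genes and 0.30 in that of the longest. For the switched-on genes its median log2 ratio to the mean of Vector replicates 1 and 3 was -0.22, and 25 of the 41 were lower in it than that mean. Without this library the rule took 43 genes, 34 of them among the 41. All 12 melanocyte markers examined were expressed in both groups, PMEL at means of 60990 and 56470 normalized counts in Vector and shEZH2. Past the threshold, TYRP1 rose from 275 to 887 and MLANA from 429 to 714, and TYR fell from 6343 to 3148, while the other 9 did not pass it.

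All 41 genes stayed at low levels after the knockdown. Their shEZH2 means ran from 12.5 to 46.0 normalized counts with a median of 19.9, against Vector means of 0.688 to 7.84 with a median of 4.30. The ratio of the means ran from 3.02 to 30.8 with a median of 4.23, and it reached 5 in 18 genes and 10 in 6. Per length, the shEZH2 levels were 0.0649 to 2.74 RPKM (reads scaled to gene length and library depth), with a median of 0.321. On this scale each of the 41 lay between the 16.4th and the 46.6th percentile of all coding genes in shEZH2, so 0 rose above the median coding gene. In bulk RNA a low level in all cells and a higher level in a few cells cannot be told apart.

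**Figure D1:**
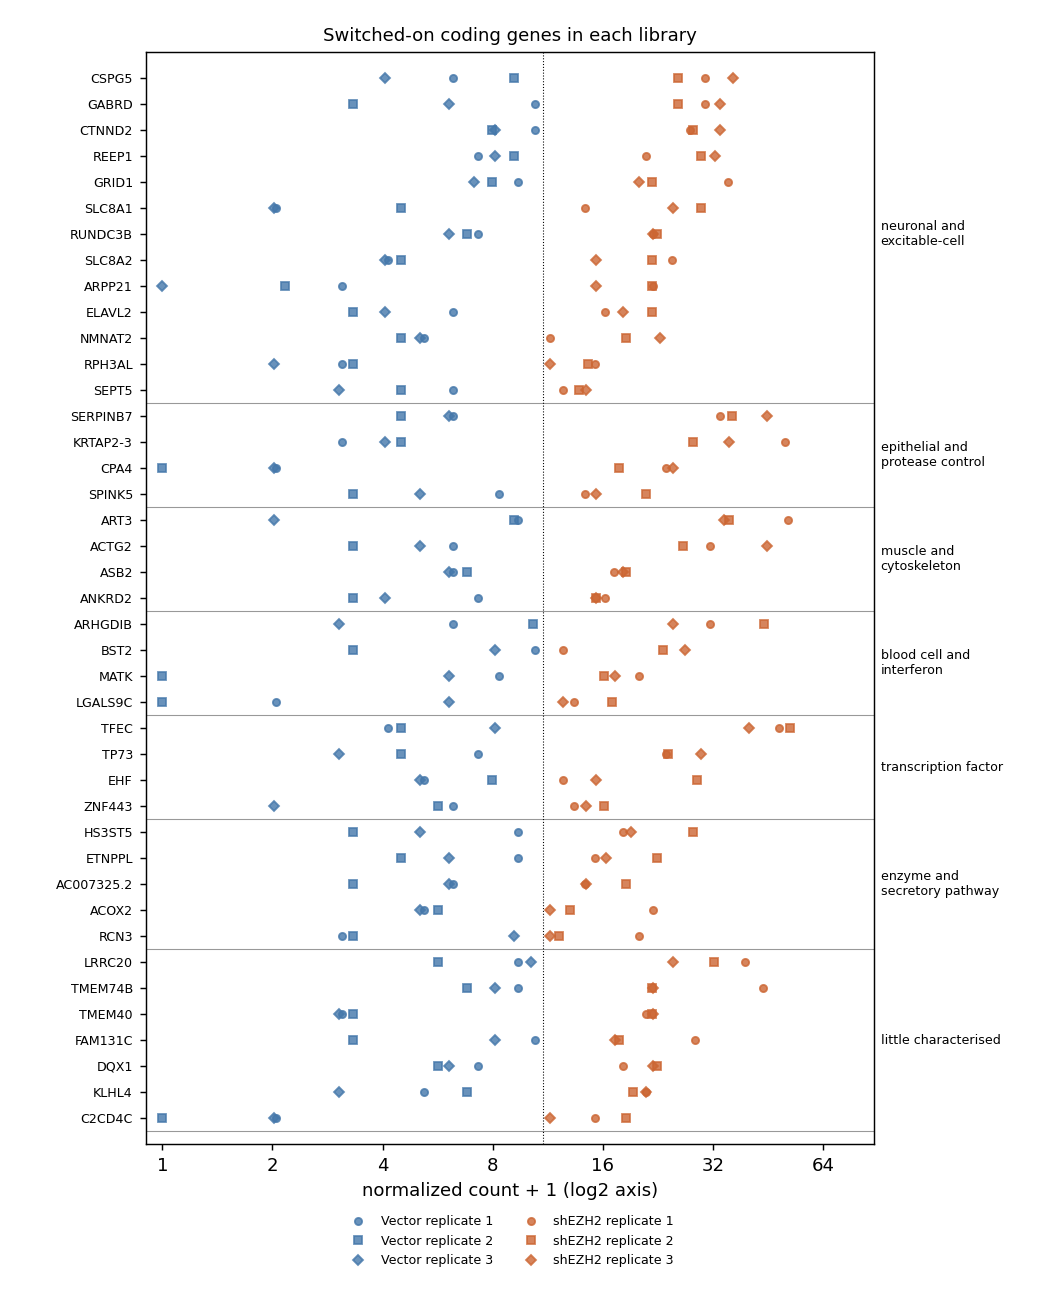
Normalized counts (plus 1, log2 axis) of the 41 genes in each of the 6 libraries, grouped by known role. Blue points are Vector and orange points shEZH2 libraries, with a marker shape for each replicate, and the dotted line marks a normalized count of 10. Every blue point lies left of the line and every orange point right of it, as the choice of the genes requires, and within shEZH2 the 3 replicates share the highest values about evenly (13, 15 and 13 genes).

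Summed over the genes, the shEZH2 libraries were close together, at 933, 924 and 887 normalized counts. The Vector sums were 219, 157 and 168, with replicate 1 above the others. These sums rest on 209, 135 and 165 reads in Vector and on 980, 1157 and 929 in shEZH2. No shEZH2 library dominated the set: replicate 1 was the highest of the 3 for 13 genes, replicate 2 for 15 and replicate 3 for 13. In Vector the highest library was replicate 1 for 25 genes, replicate 2 for 12 and replicate 3 for 4. The coefficient of variation among the shEZH2 libraries ran from 1.60% in RUNDC3B to 49.3% in EHF, with a median of 20.2%. A single gene rested on 2 to 22 reads over the 3 Vector libraries and on 42 to 155 over the 3 shEZH2 libraries. Intervals given with a ratio are exact 95% intervals for the counts of reads and cover counting error only.

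The limits cut through a continuous range of values. Just inside the ratio limit stood ETNPPL at 3.02, ASB2 at 3.16 and BST2 at 3.16. Just outside it were FUT1 at 2.98, NHLRC4 at 2.97 and TRHDE at 2.75, all with every library on the right side of 10. In all, 67 near-silent coding genes had every shEZH2 library at 10 or above, and 26 of them were short of the ratio. C16orf95, TJP3 and SLC44A5 missed by a single shEZH2 library at 9.58, 9.55 and 9.55. IL21R, the interleukin 21 receptor, missed through Vector libraries at 10.5, 3.49 and 11.2, with 57.1, 70.3 and 52.5 in shEZH2. The same limits with the groups exchanged took 17 genes, or 0.515% of the 3302 coding genes at or under 10 in every shEZH2 library. These 17 included the taste receptor TAS2R3, the neuronal adhesion genes CNTN2 and CNTN6 and the neuroendocrine granule gene CHGA.

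**Figure D2:**
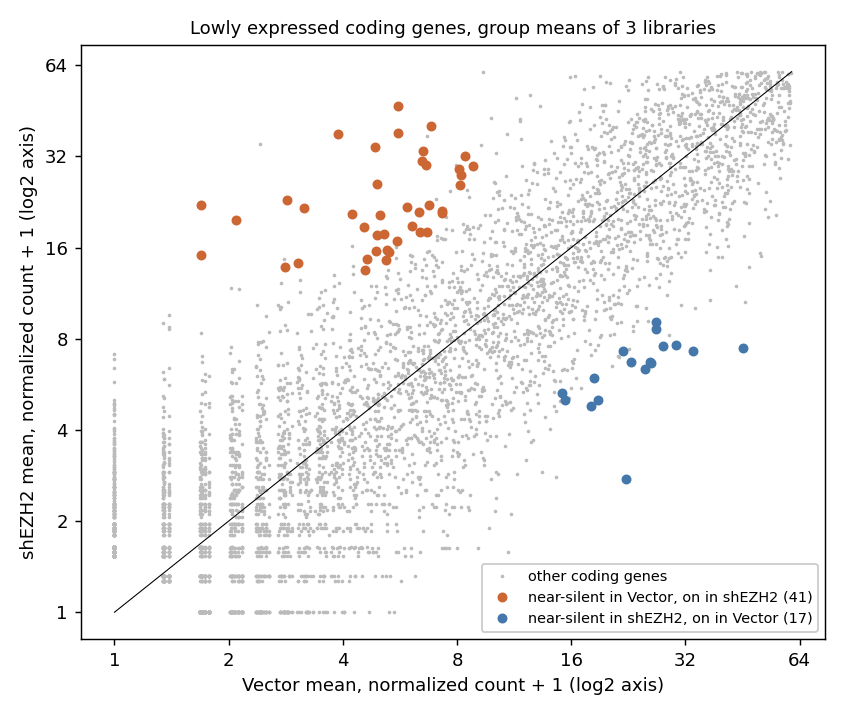
Group means of lowly expressed coding genes, as normalized count plus 1 on log2 axes, with Vector on the horizontal and shEZH2 on the vertical axis. Orange points are the 41 genes near-silent in Vector and on in shEZH2, blue points the 17 genes with the groups exchanged, grey points other coding genes within the axes, and the line marks equal means.

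Of the 41 genes, 31 reached the mean of 10 normalized counts over the 6 libraries needed for the fit across all genes, and they could do so only through shEZH2. All 31 were past its threshold (unadjusted p under 0.05 and log2 fold change above 0.585), where 7.55% of 15251 genes tested were past it upward and 7.07% downward. The rule used the same values, so nothing is read from that count.

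By known function the 41 genes fell into 7 groups, drawn up by hand after the genes were seen and without a count of such genes among all near-silent ones. The largest held 13 genes of neurons and other excitable cells, and 7 genes had little known function. Enzymes and proteins of the secretory pathway made up 5, and the groups of epithelial and protease-related genes, muscle and cytoskeletal genes, transcription factors, and blood-cell and interferon genes had 4 each.

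A list of synaptic and neuronal proteins held only 1 of the 41, ELAVL2, among 35 near-silent genes (2.86%, against 1.29% of all near-silent coding genes), and 1 gene with the groups exchanged. Of 85 others on that list tested, 14 were higher and 16 lower, where 7.55% and 7.07% of all genes tested were.

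Among the genes of excitable cells, 2 code for subunits of neurotransmitter receptors. GABRD, the delta subunit of GABA-A receptors found outside synapses, was read at 9.41, 2.33 and 5.09 in Vector and at 29.5, 24.8 and 32.5 in shEZH2 libraries. Its ratio was 5.15, with a counting interval of 2.93 to 9.12. GRID1, a delta-type glutamate receptor that organises synapses, had 8.37, 6.99 and 6.11 in Vector and 34.3, 20.8 and 19.1 in shEZH2. Of the 3 shEZH2 libraries, replicate 1 was clearly the highest for GRID1, while those of GABRD were close together. Of 22 near-silent genes on a list of neurotransmitter-gated channels these were the 2 taken, 9.09% against 1.29% of all near-silent coding genes. With the groups exchanged, 1 gene of this list was taken. Of 20 other genes of the list tested, 3 were higher and 3 lower, beside 7.55% and 7.07% of all genes tested. Among 15 other GABA-A subunit genes, GABRA5 rose from 41.7 to 65.1 (log2 fold change 0.68, SE 0.27, limma, adjusted p = 0.194, past the threshold by its unadjusted p).

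Both SLC8A1 and SLC8A2 were taken, the only SLC8A genes in the table, which code for sodium-calcium exchangers. These exchangers carry calcium out of the cell in return for sodium, SLC8A1 chiefly in heart muscle and SLC8A2 in brain. SLC8A1 was read at 1.05, 3.49 and 1.02 in Vector and at 13.3, 28.8 and 23.9 in shEZH2 libraries, a ratio of 11.9 with a counting interval of 5.14 to 39.7. For SLC8A2 the values were 3.14, 3.49 and 3.06 in Vector and 23.8, 20.8 and 14.3 in shEZH2, a ratio of 6.08 (3.04 to 14.0). The libraries do not rank alike for the pair, since shEZH2 replicate 1 was the lowest for SLC8A1 and the highest for SLC8A2. Per length SLC8A1 remained the lowest of the 41 genes, at 0.0649 RPKM in shEZH2, over the longest transcribed sequence of them (21922 bases). They were 2 of 92 near-silent solute carrier genes (2.17%, against 1.29% overall), and of 212 other solute carriers tested 14 were higher and 15 lower, close to the 7.55% and 7.07% of all genes tested.

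Genes with a place in axons and synapses made up most of the remaining excitable-cell genes. CSPG5, a brain chondroitin sulfate proteoglycan, had the highest shEZH2 mean of the 13, with 29.5, 24.8 and 35.3 against 5.23, 8.15 and 3.06 in Vector. CTNND2, the delta-catenin of neuronal junctions, was read at 9.41, 6.99 and 7.13 in Vector and at 26.7, 27.2 and 32.5 in shEZH2. REEP1, which shapes the endoplasmic reticulum and is mutated in hereditary spastic paraplegia, had 6.27, 8.15 and 7.13 against 20, 28.8 and 31.5. In each of these genes the lowest shEZH2 library was more than 2 times the highest Vector library. ARPP21, a phosphoprotein of the striatum that binds RNA, had the largest ratio of the 13, at 17.2. It rests on 3 Vector reads and 63 shEZH2 reads, and its counting interval reached from 5.73 to 87.3. The values were 2.09, 1.16 and 0 in Vector and 21.0, 20.8 and 14.3 in shEZH2 libraries. ELAVL2, a neuronal RNA-binding protein, had a ratio of 5.01, with 5.23, 2.33 and 3.06 in Vector and 15.2, 20.8 and 17.2 in shEZH2. NMNAT2, which makes NAD in axons, and RUNDC3B, a RUN domain protein, averaged 16.7 and 21.2 in shEZH2. RPH3AL, an effector of Rab proteins in regulated secretion, and SEPT5, a septin bound to synaptic vesicles, were the lowest, at 12.8 and 12.5. RPH3A, the relative of RPH3AL, was not taken but averaged 0.388 in Vector and 8.60 in shEZH2. SEPT5 overlaps the read-through gene SEPT5-GP1BB, which averaged 0 and 1.07, and reads of the 2 cannot be told apart.

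The epithelial and protease-related group had the highest median ratio of the 7 groups, 10.5, over only 4 genes. CPA4, a secreted carboxypeptidase, had the largest ratio of all 41 genes, 30.8, with 1.05, 0 and 1.02 in Vector and 22.9, 16.8 and 23.9 in shEZH2 libraries. It rests on 2 Vector reads and 70 shEZH2 reads, and the counting interval of the ratio was 7.79 to 246. Of the same family, CPA3 and CPA6 averaged 1.86 and 0.637 in shEZH2. The RefSeq promoter of CPA4 (GRCh38.p14, plus strand, chr7:130292911-130293210, 250 bases before the start site and 50 after it) is shown because it held 2 AP-1 motifs, TGACTCA or TGAGTCA on either strand. In the sequence, given from 5′ to 3′, the capitals mark them, starting 48 and 15 bases before the start site.
CPA4: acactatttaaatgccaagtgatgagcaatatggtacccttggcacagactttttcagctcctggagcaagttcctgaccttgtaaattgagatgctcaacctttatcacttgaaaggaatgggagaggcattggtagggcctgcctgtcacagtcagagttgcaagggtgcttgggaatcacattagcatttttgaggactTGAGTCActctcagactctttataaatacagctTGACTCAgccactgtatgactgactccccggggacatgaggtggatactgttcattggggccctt
Of the 35 switched-on genes with a promoter in the RefSeq set, 5.71% held an AP-1 motif, against 4.86% of 2224 other near-silent coding genes and 2.90% of 10533 coding genes above the Vector limit. A match is a description of the letters and not evidence of binding.

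SERPINB7 and SPINK5 code for inhibitors of serine proteases in the outer skin. SERPINB7 was read at 5.23, 3.49 and 5.09 in Vector and at 32.4, 35.1 and 43.9 in shEZH2 libraries, a ratio of 8.07 (counting interval 4.49 to 15.4). SPINK5 had 7.32, 2.33 and 4.07 in Vector and 13.3, 19.96 and 14.3 in shEZH2, a ratio of 3.47. The shEZH2 libraries of SERPINB7 lay far above the Vector range, whereas shEZH2 replicate 1 of SPINK5 was less than 2 times its highest Vector library. They were 2 of 51 near-silent genes on a list of serpins, serine proteases and coagulation genes (3.92%, against 1.29% overall). Of 28 others tested 5 were higher and 4 lower, beside 7.55% and 7.07% of all genes tested. Among the other clade B serpins, SERPINB1 rose from 698 to 1041 (log2 fold change 0.61, SE 0.21, limma, adjusted p = 0.151, past the threshold by its unadjusted p), while SERPINB2 averaged 0.688 and 2.07. KRTAP2-3, a hair keratin-associated protein, had the highest level per length of all 41 genes, 2.74 RPKM in shEZH2. It was read at 2.09, 3.49 and 3.06 in Vector and at 49.5, 27.2 and 34.4 in shEZH2, a ratio of 12.9 (6.26 to 30.2). Its neighbour KRTAP2-4 has a near-identical sequence and averaged 0 and 1.75, so how reads were divided between the pair is uncertain. Of the 9 other keratin-associated protein genes in the table none reached the minimum mean of 10.

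Of 10 keratinocyte markers, 7 were near-silent in Vector and 0 were switched on. With 1.29% of all near-silent coding genes taken by the rule, nothing is read from that 0. The 3 that were tested gave 0 higher and 1 lower past the threshold. IVL and DSC3 were at 0 in all shEZH2 libraries, TP63 averaged 0.349 and 2.39 and KRT14 3.17 and 6.95 in Vector and shEZH2. The summed level of the 10 ran from 572 to 976 normalized counts in Vector and from 758 to 1028 in shEZH2.

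In the muscle and cytoskeletal group, ACTG2 and ART3 reached the highest levels. ACTG2, the gamma actin of visceral smooth muscle, was read at 5.23, 2.33 and 4.07 in Vector and at 30.5, 25.6 and 43.9 in shEZH2 libraries, a ratio of 8.59 (counting interval 4.49 to 17.2). Its RefSeq promoter (GRCh38.p14, plus strand, chr2:73892758-73893057) is shown because it held 2 CArG boxes, the motif of serum response factor known from smooth muscle genes. The capitals mark them, starting 110 and 73 bases before the start site.
ACTG2: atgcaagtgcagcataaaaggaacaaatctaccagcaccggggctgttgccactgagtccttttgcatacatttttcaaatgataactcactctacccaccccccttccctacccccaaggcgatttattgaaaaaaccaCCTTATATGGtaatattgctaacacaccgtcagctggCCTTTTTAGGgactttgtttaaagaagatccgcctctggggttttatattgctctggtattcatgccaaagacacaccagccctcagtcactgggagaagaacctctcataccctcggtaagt
A CArG box was found in 2 of the 35 promoters (5.71%), those of ACTG2 and ASB2, against 1.26% of other near-silent coding genes and 1.11% of coding genes above the Vector limit. ART3, a member of the ADP-ribosyltransferase family expressed in muscle and testis, had 8.37, 8.15 and 1.02 in Vector and 50.5, 34.3 and 33.4 in shEZH2. Its Vector libraries had the largest SD of the 41 genes, 4.18, with replicate 3 far below the others. ASB2, part of a ubiquitin ligase that removes filamins, had 5.23, 5.82 and 5.09 against 16.2, 17.6 and 17.2. ANKRD2, a stretch-responsive protein of the sarcomere, had 6.27, 2.33 and 3.06 against 15.2, 14.4 and 14.3. Both were almost equal over the 3 shEZH2 libraries.

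Relatives of the muscle genes that lay above the limit give values the rule did not use. ANKRD1, of the same muscle ankyrin repeat family as ANKRD2, rose from 38.5 ± 3.98 to 701 ± 61.6 normalized counts (SD, n = 3; log2 fold change 4.16, SE 0.16, limma, adjusted p = 0.000167). ANKRD23, the third, averaged 8.55 in Vector and 3.29 in shEZH2 and was too low for the fit. Of the actins, ACTG1 rose from 40930 to 72690 (log2 fold change 0.84, SE 0.19, limma, adjusted p = 0.0549, past the threshold by its unadjusted p), and ACTA2 averaged 40.2 and 64.0 without passing it. The striated muscle actins ACTA1 and ACTC1 averaged 1.27 and 0 in shEZH2. On a list of sarcomere genes ACTG2 and ANKRD2 were 2 of 52 near-silent genes (3.85%, against 1.29% overall). Of 58 others tested 10 were higher and 4 lower, beside 7.55% and 7.07% of all genes tested. Of 9 fibroblast markers, 6 were near-silent in Vector and 0 were switched on. With 1.29% of all near-silent coding genes taken by the rule, nothing is read from that 0. COL1A1, COL3A1, DCN and PDGFRA averaged under 5 in both groups. FAP rose from 230 to 523 and LUM from 148 to 247 past the threshold, while COL1A2 fell from 65.5 to 36.9. The summed level of the 9 fibroblast markers was 442 to 454 in Vector and 728 to 913 in shEZH2 libraries, and its part in the muscle genes was not tested.

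Among the transcription factors, TFEC had the highest mean of all 41 genes. TFEC belongs to the basic helix-loop-helix family of MITF, the main regulator of the melanocyte lineage. The gene (ENSG00000105967, minus strand, chr7:115935148-116159896 in the table's GRCh38 coordinates) was read at 3.14, 3.49 and 7.13 in Vector and at 47.6, 51.1 and 39.1 in shEZH2 libraries, a ratio of 10.0 (counting interval 5.65 to 19.1). The 3 shEZH2 libraries were close together and the lowest was over 5 times the highest Vector library. Its relatives were expressed before the knockdown. MITF averaged 1476 and 1742 and TFE3 1476 and 1595, neither past the threshold, and TFEB rose from 41.6 to 65.9 (log2 fold change 0.65, SE 0.26, limma, adjusted p = 0.185, past the threshold by its unadjusted p).

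TP73, a transcription factor with roles in neurons and ciliated epithelia, was read at 6.27, 3.49 and 2.04 in Vector and at 22.9, 23.2 and 28.6 in shEZH2 libraries. Its ratio was 6.33 (counting interval 3.35 to 13.1). Its relative TP63 stayed under 3 in both group means. TP73 overlaps WRAP73 on the opposite strand, which averaged 550 and 622 normalized counts. Whether counting used strand is not given in the sources used here, so reads of the pair cannot be told apart where they overlap. The RefSeq promoter of TP73 (GRCh38.p14, plus strand, chr1:3652266-3652565) is shown for its 49 CpG dinucleotides, in capitals, the most of the 35 promoters.
TP73: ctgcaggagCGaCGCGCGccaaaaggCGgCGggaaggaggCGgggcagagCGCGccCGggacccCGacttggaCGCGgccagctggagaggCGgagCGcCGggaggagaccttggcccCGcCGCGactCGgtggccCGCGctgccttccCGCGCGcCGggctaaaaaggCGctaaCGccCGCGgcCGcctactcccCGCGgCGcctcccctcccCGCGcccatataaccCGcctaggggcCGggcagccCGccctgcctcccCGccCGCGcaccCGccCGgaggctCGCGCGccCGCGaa
EHF, an ETS factor of epithelia, had 4.18, 6.99 and 4.07 in Vector and 11.4, 28.0 and 14.3 in shEZH2, with shEZH2 replicate 2 far above the others. ZNF443, a C2H2 zinc finger gene, averaged 3.64 and 13.6. These 4 stood among 198 near-silent coding genes that the table assigns to a transcription factor family. Of all near-silent coding genes the rule took 1.29%. HOX genes (10 near-silent), other homeobox factors (26) and forkhead, SOX, T-box, GATA and KLF factors (25) held 0 of the 41. At 1.29% of near-silent genes, less than 1 gene would fall in a list of any of these sizes, so nothing is read from the 0.

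The blood-cell and interferon group was led by ARHGDIB, an inhibitor of small GTPases found in leukocytes, with 5.23, 9.31 and 2.04 in Vector and 30.5, 43.1 and 23.9 in shEZH2 libraries. Its ratio was 5.88 (counting interval 3.59 to 11.4), and replicate 2 was the highest library in both groups. The broadly expressed relative ARHGDIA averaged 1795 and 2293 and was not past the threshold. MATK, a kinase of blood cells and neurons that restrains Src, had 7.32, 0 and 5.09 against 19.0, 15.2 and 16.2. BST2, the interferon-induced tetherin that holds virus particles at the cell surface, had 9.41, 2.33 and 7.13 against 11.4, 22.4 and 25.8, so its closest libraries stood at 9.41 and 11.4. LGALS9C, a copy of the galectin 9 gene, had 1.05, 0 and 5.09 against 12.4, 16.0 and 11.5. LGALS9 itself averaged 9.16 in Vector and 1.91 in shEZH2. The copies share most of their sequence, and a change in LGALS9C cannot be told apart from a different assignment of shared reads. Of 6 leukocyte markers 3 were near-silent in Vector and 0 were switched on. With 1.29% of all near-silent coding genes taken by the rule, nothing is read from that 0. The highest mean of the 6 was 9.29 in Vector and 9.87 in shEZH2. The summed level of the 6 was 10.2 to 51.2 in Vector and 24.8 to 28.7 in shEZH2. BST2 was the only gene taken of 97 near-silent immunoglobulin, HLA and leukocyte surface genes (1.03%). LGALS9C was the only one of 27 near-silent interferon-induced genes (3.7%). The rule took 1.29% of all near-silent coding genes, so nothing is read from either count.

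The 5 enzymes and secretory proteins had the lowest median ratio of the groups, 3.36. HS3ST5, which adds sulfate to heparan sulfate chains, was the highest, with 8.37, 2.33 and 4.07 in Vector and 17.1, 27.2 and 18.1 in shEZH2 libraries. It overlaps the antisense gene HDAC2-AS2, which averaged 6.17 and 14.1, and reads of the 2 cannot be separated without strand. ETNPPL, a phosphoethanolamine lyase, had 8.37, 3.49 and 5.09 against 14.3, 21.6 and 15.3. ACOX2, a peroxisomal oxidase of bile acid intermediates, and RCN3, a calcium-binding protein of the endoplasmic reticulum, averaged 14.5 and 13.6 in shEZH2, each with a single library above 19 and the others under 12. AC007325.2, a copy of a proline dehydrogenase gene on the unplaced scaffold KI270734.1, averaged 4.22 and 14.8, and PRODH 3.60 and 6.04. Reads shared by these copies cannot be told apart.

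The last 7 genes have little known function. LRRC20, a leucine-rich repeat protein, had the highest mean of them, with 8.37, 4.66 and 9.16 in Vector and 38.1, 31.1 and 23.9 in shEZH2 libraries. TMEM40, a transmembrane protein, varied little in either group, at 2.09, 2.33 and 2.04 against 20, 20.8 and 21.0, a ratio of 9.57 (counting interval 4.19 to 27.1). C2CD4C, a C2 domain protein, had 1.05, 0 and 1.02 against 14.3, 17.6 and 10.5, a ratio of 20.5. That ratio rests on 2 Vector reads and 48 shEZH2 reads and had a counting interval of 5.25 to 170. Its RefSeq promoter (GRCh38.p14, minus strand, chr19:409098-409397) is shown beside that of TP73 as another dense in CpG, with 44 in capitals.
C2CD4C: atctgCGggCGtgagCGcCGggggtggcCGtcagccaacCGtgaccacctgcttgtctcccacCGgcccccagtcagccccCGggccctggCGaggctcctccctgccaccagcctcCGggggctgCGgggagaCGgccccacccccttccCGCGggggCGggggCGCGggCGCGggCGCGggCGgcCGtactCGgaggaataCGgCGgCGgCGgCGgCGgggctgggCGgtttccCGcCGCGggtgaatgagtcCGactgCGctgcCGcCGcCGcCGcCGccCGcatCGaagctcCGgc
TMEM74B averaged 7.11 and 28.2, with 42.9 in shEZH2 replicate 1 against 20.8 and 21.0 in the others. It overlaps PSMF1 on the opposite strand, which averaged 3998 and 3957 normalized counts. FAM131C, DQX1 and KLHL4 averaged 20.2, 19.9 and 19.5 in shEZH2.

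Of 34 lists of gene families, 21 held none of the switched-on genes, 8 held 1 and 5 held at least 2. Beside the receptor, solute carrier, serpin and sarcomere lists, the fifth was a list of genes with numbered or clone-based names, 6 of 339 near-silent genes (1.77%, against 1.29% overall). It was drawn by name alone and took in ANKRD2 and AC007325.2 with FAM131C, LRRC20, TMEM40 and TMEM74B. The longest near-silent lists without any were the G protein-coupled receptors (158 near-silent genes), cancer-testis and germline genes (80) and potassium, sodium, calcium and TRP channels (66). At 1.29% these lists would hold very few of the 41, and whether the genes gather in families was not tested.

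In families drawn up by hand, mostly by a shared symbol root and in a few cases by known kinship (MITF with TFEC, PRODH with AC007325.2, ELF factors with EHF), 101 relatives of 26 of the genes were in the table outside the set, and 53 were tested. Of these 12 were higher and 2 lower past the threshold, beside 7.55% and 7.07% of all genes tested. Septins gave 4 of the 12, namely SEPT2, SEPT3, SEPT4 and SEPT6, with SEPT3 at 47.1 ± 15.5 and 212 ± 21.3 (SD, n = 3; log2 fold change 2.20, SE 0.28, limma, adjusted p = 0.011). REEP2 rose from 70.5 to 192 (log2 fold change 1.44, SE 0.21, adjusted p = 0.0176, limma) and REEP6 from 78.8 to 175 (log2 fold change 1.14, SE 0.23, adjusted p = 0.041, limma). ASB9, of the family of ASB2, rose from 89.8 to 177 (log2 fold change 1.00, SE 0.21, adjusted p = 0.0455, limma). The relatives were grouped after the 41 genes were known, and nothing particular to them is read from these counts.

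The genes lay on 18 chromosomes and 1 scaffold, with 6 on chromosome 19 and 4 each on chromosomes 1, 2 and 3. For each gene at most 2 nearest coding genes were examined, on whichever side they lay. They numbered 81, and 0 of them were themselves switched on. Of these neighbours 26 were near-silent and 55 were tested. Past the threshold 4 were higher and 2 lower, beside 7.55% and 7.07% of all genes tested, and nothing is read from these counts. The 4 higher were ELP6 beside CSPG5, SHMT1 beside LGALS9C, OTUB2 beside ASB2 and EPHA2 beside FAM131C. The 2 lower were TMEM178A beside SLC8A1 and DMRTA1 beside ELAVL2. Of the 28 neighbours within 10000 bases none was past the threshold. For ANKRD2, HOGA1 at 439 bases averaged 15.2 and 13.8, and for REEP1, MRPL35 at 199 bases averaged 723 and 698. The length of the transcribed sequence had a median of 4141 bases, against 3424 for other near-silent coding genes and 5183 for the remaining coding genes.

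Their promoters resembled those of other near-silent genes in CpG content. A RefSeq promoter of 300 bases was matched by symbol for 35 of the 41, and 29 of these lay within 1000 bases of the gene's start in the table. The median number of CpG dinucleotides was 8 (quartiles 3 and 21.5), against 10 (4 and 24) in 2224 other near-silent coding genes and 26 (18 and 34) in 10533 coding genes above the Vector limit. A promoter was called CpG-rich at a GC content of at least 50% and an observed to expected CpG ratio of at least 0.6. By that measure 11 of the 35 (31.4%) were CpG-rich, against 37.5% and 79.8% in the other classes. The 11 were LRRC20, CTNND2, TMEM74B, TP73, RUNDC3B, FAM131C, ELAVL2, ETNPPL, NMNAT2, C2CD4C and RCN3. Their median ratio was 3.97, against 5.67 for the 24 with fewer CpG, and their median shEZH2 means were 20.2 and 20.2. Among the genes with the largest ratios, CPA4 and KRTAP2-3 had 1 and 4 CpG in 300 bases, whereas C2CD4C had 44. For SLC8A1 and TFEC the RefSeq promoter lay 98618 and 129133 bases from the gene's start in the table, so their CpG counts (4 and 3) describe another start site than the table's.

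**Figure D3:**
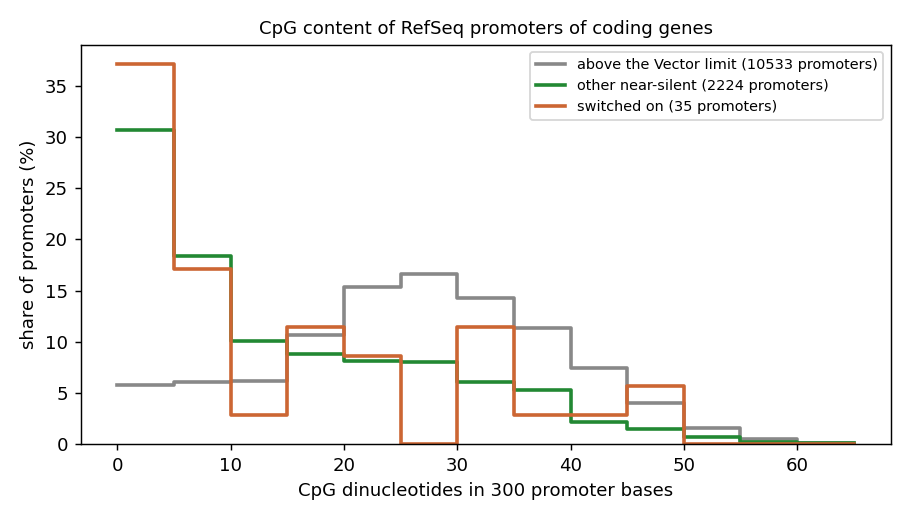
Distribution of the number of CpG dinucleotides in 300-base RefSeq promoters, as the share of promoters in bins, for the 35 switched-on genes (orange), 2224 other near-silent coding genes (green) and 10533 coding genes above the Vector limit (grey). The orange and green lines both peak in the lowest bin, with medians of 8 and 10, while the grey line peaks around its median of 26.

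Other motifs were searched on both strands in the same windows. A TEAD motif, GGAATG, was found in 17.1% of the 35 promoters, 13.5% of those of other near-silent genes and 10.7% of those above the limit. An ETS motif, GGAAGT, was in 7 of the 35 promoters, and in 19.2% and 27.5% of the other classes. The E-box CACGTG was in 5.71%, 5.80% and 10.1%, and TATAAA in 14.3%, 15.2% and 5.58%. With 35 promoters each hit weighs heavily, and no difference between these shares was tested.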

How the data were processed

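RNA from 3 Vector and 3 shEZH2 libraries of HMV-II cells was purified with poly-T beads and sequenced on an Illumina NovaSeq. By the labels and methods, the authors used FeatureCounts 1.5.0-p3 for counting and DESeq2 1.20.0 for the comparison. The aligner and the strand setting are not given in the sources used here. The submitters' processing notes name hg19, while the gene coordinates of the table follow GRCh38: for 86.1% of 12792 coding genes the start lay within 1000 bases of a RefSeq GRCh38.p14 start.

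The deposited values are signal values, reads divided by a size factor per library, with the gene length beside them. 100% of the values came out as whole reads (tolerance 0.01 reads). Columns of the authors' comparison (fold changes and their p and adjusted p) were not used, and 0 columns of single libraries were left unused. Libraries were matched to columns by the group and replicate number in their names.

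Groups were compared with limma 3.58.1 (R 4.3.3, trend) on log2(normalized count + 1), over 15251 genes with a mean of at least 10, without a replicate block. A fold change on this scale understates that of low genes. The threshold was the study's, an unadjusted p under 0.05 and a log2 fold change above 0.585 in size, with Benjamini-Hochberg adjusted p beside it. The count tests, edgeR 4.0.16 (quasi-likelihood) and DESeq2 1.42.0, on recovered reads called 1086 and 1045 genes higher and 1191 and 1321 lower. The scripts were tested on simulated data. Levels per length (RPKM) are reads divided by the table's gene length and by the reads counted in the library.

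The genes, lists, roles and families were chosen with earlier results of these data known. Roles and families were assigned after the 41 genes were seen. Genes named are the 15 with the highest shEZH2 mean, the 15 with the highest ratio, up to 5 genes in each list holding at least 2, EZH2, and the 3 on each side of the ratio limit, and the other genes of the set were added by role. Relatives, neighbours, markers and the genes nearest to the other limits were named after their values were seen, and some of them are not reported here. Alternatives covered scaling, limits, tests, pseudocount, filters and each library left out.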

Additional observations from a re-analysis of the deposited data

How the results depend on the processing

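The number of genes taken depended on the limits by construction. Limits of 5 in Vector and 10 in shEZH2 took 10 genes, limits of 10 and 20 took 13, a ratio of at least 4 took 23, and the same limits with the groups exchanged took 17. A ratio of at least 2 took 61 and all biotypes 58, each with all 41, while limits of 20 and 20 took 32, of which 13 were among the 41. TMM scaling took 41 and scaling by total reads 43, with all 41 shared in both. Leaving out a library in turn took 43 to 56 genes, of which 34 to 40 were among the 41, and 28 of the 41 were taken each time. The 13 that were lost at least once were AC007325.2, ACOX2, BST2, EHF, ETNPPL, FAM131C, GRID1, MATK, RCN3, SEPT5, SPINK5, TMEM74B and ZNF443.

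Across all genes tested, 1151 were higher and 1078 lower past the threshold. With an adjusted p under 0.05 these became 345 and 279, and where the log2 fold change had to exceed 1 either way, 463 and 335. Leaving out a library gave 843 to 1535 higher and 774 to 1316 lower. The log2 fold change of EZH2 stayed between -1.12 and -0.96 over all alternatives run, with adjusted p from 5.94e-08 (DESeq2) to 0.129 (without shEZH2 replicate 3). The deviations of same-numbered libraries of the groups had correlations of 0.275, 0.219 and -0.111. Without those of differently numbered libraries beside them, these values do not settle whether the numbers pair the libraries. A fit with the replicate number as a block gave 1322 higher and 1112 lower, with EZH2 at -1.04. The 31 testable genes were chosen by the same values, so fits of them under alternatives support nothing. Of these, 4 fell short of the threshold (BST2 without shEZH2 replicate 2 or 3, FAM131C without shEZH2 replicate 1, MATK with a pseudocount of 0.1), and a gene under the minimum mean in an alternative had no fit there.

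Depth limits what can be said of single genes. With 2 to 22 reads over the 3 Vector libraries, the Vector level of most of these genes is known only to within a wide counting error; 0 reads in a library allow a level of up to 3 reads there.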
